A study of Mus musculus with 4 samples.

Results

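The genes described here are arginase 2 (Arg2) and 7 genes of ornithine and polyamine metabolism: Odc1, Srm, Sms, Sat1, Amd1, Oat and Azin1. They were taken by symbol from a table of RefSeq transcripts, with counts and FPKM (read counts divided by transcript length and by a library total) summed over the transcripts of a symbol. All 8 symbols had a row among the 19797 symbols of the table. Of these, 7 passed the filter of a mean FPKM of at least 1 and were among the 12050 genes tested. Amd1 did not pass it and is described by its reads. The RNA came from MC1-ZE7, a mouse embryonic stem (ES) cell line of strain MC1 (129S6/SvEvTac) in which the fluorescent protein Emerald reports transcription of Zscan4, a gene family switched on in brief bursts in ES cells and active in the early embryo. The cells were grown without feeders on gelatin in serum and LIF, and were sorted by Emerald fluorescence. The high Emerald-positive fraction (Em+) gave 2 libraries and the Emerald-negative fraction (Em-) gave 2 libraries of ribosome-depleted total RNA, so both fractions carried the same reporter and the same culture conditions. A single reporter line was used, and no label ties the replicates to separate cultures or separate sorts. The p-values therefore describe the spread among the 4 libraries, and that spread may be purely technical.

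Arginases split arginine into urea and ornithine. ARG1 is the cytosolic enzyme of the liver urea cycle, and ARG2 is the mitochondrial enzyme of other tissues. Ornithine can be decarboxylated by ODC1 to putrescine, which SRM and SMS extend to spermidine and spermine with aminopropyl groups that depend on AMD1, or it can be turned towards glutamate and proline by OAT. Polyamines bind nucleic acids and are kept high in proliferating cells, where synthesis, breakdown and uptake are under tight feedback.

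Arg2 was higher in Em+ cells than in Em- cells by about 12.1-fold, and it was the only member gene that passed the test. The other tested members were not called in either direction. Odc1 and Oat, whose enzymes use ornithine, and the antizyme inhibitor Azin1 had similar values in both fractions, while the polyamine enzymes Srm, Sms and Sat1 had values somewhat lower in Em+ cells. Of the 7 members tested, 1 was called at an adjusted p under 0.05 (edgeR quasi-likelihood test with Benjamini-Hochberg adjustment over all tested genes). The share called among all 12050 tested genes was 4.64%, made up of 3.82% called higher and 0.822% called lower in Em+ cells. Without Arg2, 0 of the 6 tested members were called, and 2 of them (Sms and Sat1) had an unadjusted p under 0.05, both with lower values in Em+ cells. An unadjusted p under 0.05 with a lower value in Em+ cells was found for 10.7% of all tested genes.

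As a check of the labels, the summed level of 6 Zscan4 genes was 212 and 224 CPM (read counts relative to the library total, scaled by TMM) in the Em+ libraries, against 1.81 and 2.27 CPM in the Em- libraries, 107-fold by the means. The titles and the cell type field name the same fraction for each library, and the description field names the opposite one in all 4; the level of Zscan4 follows the titles, from which the groups were taken. The RefSeq counts summed to between 16468218 and 18953217 reads per library. As a share of the totals used for FPKM this was 49.01% in Em+ replicate 1 and 43.45% in Em+ replicate 2, against 51.14% and 50.73% in the Em- libraries. The ribosomal RNA precursor Rn45s took 7.95% of the RefSeq reads in Em+ replicate 2 and between 3.93% and 4.33% in the other libraries. The Em+ replicates differed more (within-group SD of log2 CPM 0.215 in Em+ and 0.149 in Em-). FPKM in Em+ replicate 2 is low for most genes, so the group comparisons rest on the TMM-scaled counts. Markers of ES cells were high in all libraries (summed FPKM of 8 genes 1300 and 987 in Em+, 1350 and 1340 in Em-). Nanog was called higher in Em+ cells (log2 fold change 0.48, adjusted p 0.0192, edgeR). The others were not called, with Klf4 higher and Pou5f1, Sox2, Esrrb and Utf1 lower in both Em+ libraries. Of all tested genes, 29.7% lay higher and 29.7% lower in both Em+ libraries than in both Em- libraries. Of 12 markers of the 2-cell-like state, 8 were tested and all were called higher in Em+ cells, against 3.82% of all tested genes. These passed the filter only through their Em+ values, and Zscan4 genes are among them, so the outcome was nearly fixed in advance. Zscan4b, Zscan4e, Zscan4f and Tcstv1 were below the filter.

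**Figure D1:**
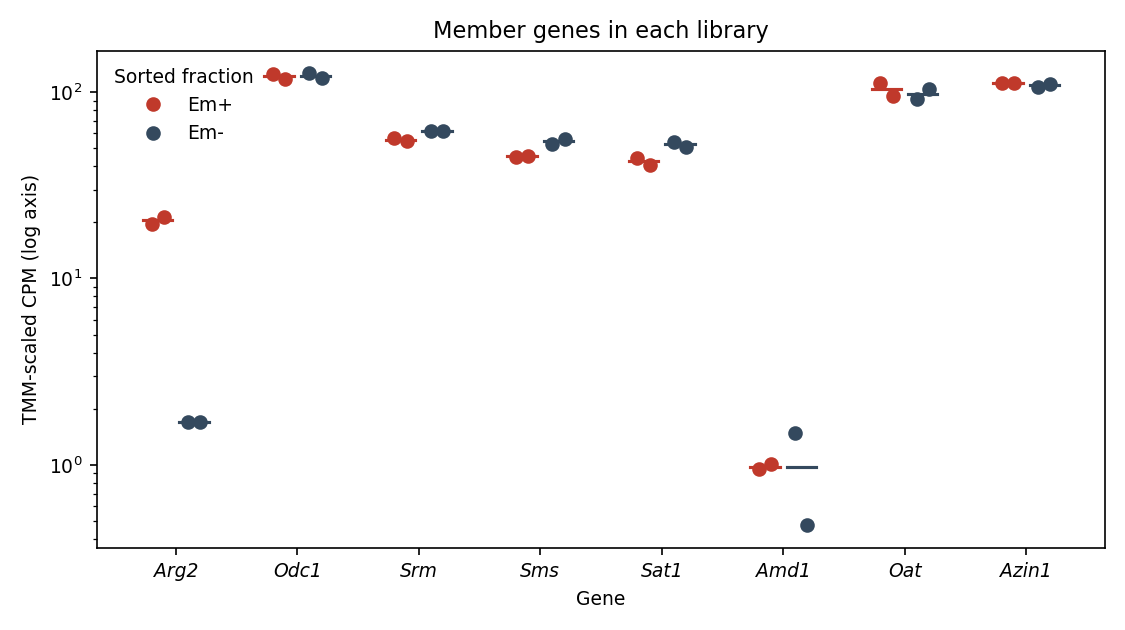
TMM-scaled CPM (log axis) of the 8 member genes in each of the 2 Em+ libraries (red, left) and the 2 Em- libraries (dark blue, right), where points are libraries and short lines are group means. Arg2 sits at 19.6 and 21.4 CPM in Em+ and at 1.70 and 1.69 CPM in Em-; the other members except Amd1, which had few reads, lie at similar levels in both fractions.

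Arg2 is a gene of the plus strand at chr12:79130788-79156301 (mm10), with 1 RefSeq transcript of 1417 bases. It had 352 and 338 reads in the Em+ libraries, against 31 and 32 reads in the Em- libraries. In FPKM these were 6.79 and 6.29 in Em+ cells, against 0.609 and 0.604 in Em- cells. Both Em+ libraries stood far above both Em- libraries, with little spread within a fraction. After scaling, Arg2 averaged 20.5 ± 1.22 CPM in Em+ cells, against 1.70 ± 0.0124 CPM in Em- cells (SD, n = 2 each). The log2 fold change was 3.59 with SE 0.15 and an adjusted p of 8.68e-06 (edgeR, Benjamini-Hochberg), with a 95% interval of 3.24 to 3.93 or 9.47-fold to 15.3-fold. With 2 libraries against 2, an exact permutation test of a single gene cannot go below p = 0.333. The call held in all 16 of the alternative settings that kept the gene, with log2 fold changes of 2.23 to 3.65; the lowest was on the log2(FPKM + 1) scale, which understates the change of a low gene, and a filter at a mean FPKM of 5 removed it.

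The level of Arg2 left in Em- cells was 8.27% of that in Em+ cells, while for the summed Zscan4 genes the corresponding figure was 0.935%. Among all tested genes, 53 had a larger log2 fold change than Arg2, and 51 of these were among the 460 called higher. In these bulk libraries, fewer cells that express a gene and less RNA of it per cell cannot be told apart. The 4 of 7 fibroblast markers with a row summed to 7.96 and 6.46 FPKM in Em+ cells, against 4.94 and 5.17 FPKM in Em- cells. Of these, Thy1 was called higher in Em+, with 5.80 and 4.70 FPKM, against 3.06 and 3.27 FPKM in Em- cells. Pdgfrb, the other one tested, had 1.80 and 1.39 FPKM in Em+ cells and 1.71 and 1.70 FPKM in Em- cells and was not called, and Col1a1 and Col1a2 were below the filter. None of the 4 was listed at 0 in every library. The part of these markers in the Arg2 result was not tested. The 4 of 5 hepatocyte markers with a row summed to 0.874 and 0.521 FPKM in Em+ cells and to 0.642 and 0.875 FPKM in Em- cells. Of the 6 macrophage and blood markers, Cd68 alone had a row, at 39.1 and 31.2 FPKM in Em+ cells and 43.8 and 45.7 FPKM in Em- cells.

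Arg1, the liver arginase, stayed low in both fractions, below the filter. It had 35 and 47 reads in the Em+ libraries and 35 and 39 reads in the Em- libraries, which overlap. Of the FPKM of both arginases together, Arg2 made up 91.3% and 88.2% in Em+ cells, against 48.0% and 46.1% in Em- cells. On the same per-length scale, Arg2 stood at 26.7% and 34.2% of the level of Oat in Em+ cells and at 2.82% and 2.47% in Em- cells. Both shares separated the fractions completely, and both have Arg2 in them.

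Ordered by mean FPKM, Arg2 was the sixth of the 8 members in Em+ cells (6.54 ± 0.352), above Sms (6.07 ± 0.648, SD, n = 2 each). Their ranges overlap across the Em+ libraries. Within each library Arg2 was above Sms, at 6.79 against 6.52 FPKM in Em+ replicate 1 and 6.29 against 5.61 FPKM in Em+ replicate 2. In Em- cells Arg2 was the seventh (0.607 ± 0.00354), with both libraries below both of Sms (8.16 ± 0.405). At the top of the order, Oat, Odc1, Srm and Sat1 followed each other in Em+ cells with means of 21.9, 21.7, 19.0 and 17.4 FPKM. The ranges of neighbours in this order overlapped across the Em+ libraries, of which replicate 2 has low FPKM for most genes. Within each Em+ library Odc1 was above Srm and Srm above Sat1, while Oat and Odc1 changed places. In Em- cells the same 4 genes ran as Odc1, Sat1, Srm and Oat, with means of 24.5, 23.9, 23.6 and 23.0 FPKM, again with overlapping libraries between neighbours. Azin1 was the fifth in both fractions, with 10.9 and 9.32 FPKM in Em+ cells and 10.8 and 11.2 FPKM in Em- cells.

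**Figure D2:**
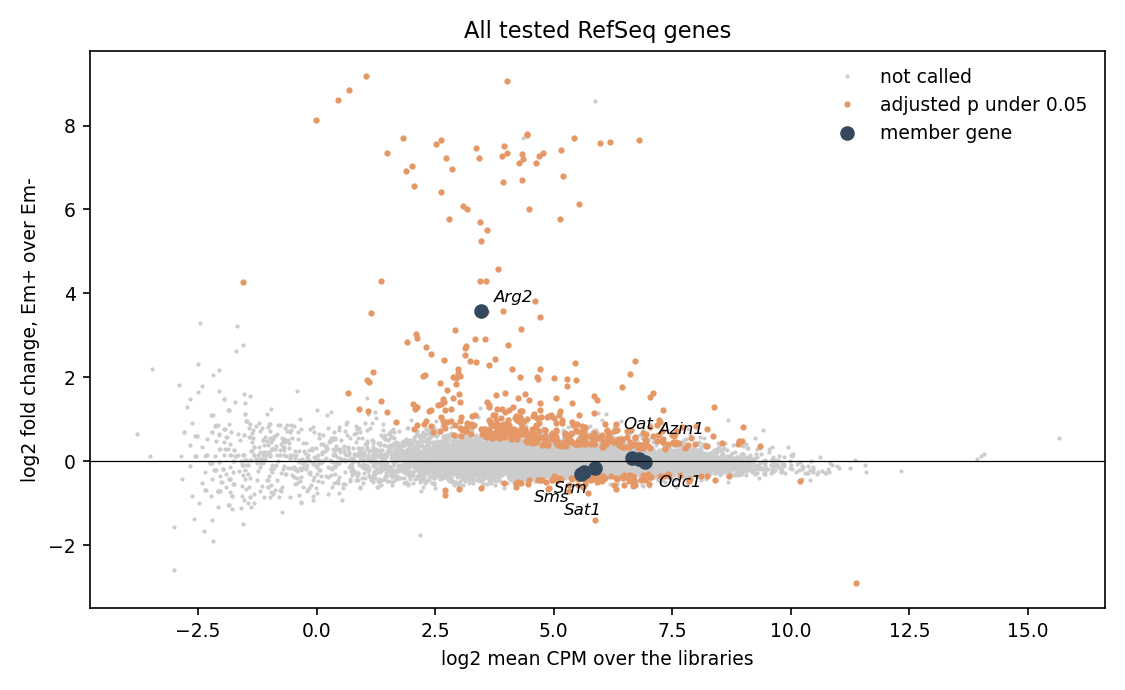
Log2 fold change (Em+ over Em-) against log2 mean CPM over the 4 libraries for the 12050 tested RefSeq genes; orange points have an adjusted p under 0.05 and dark points are the 7 tested members. Arg2 lies at 3.59, and the other 6 members lie between -0.30 and 0.08 within the cloud of genes that were not called.

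The genes whose profile over the 4 libraries was most like that of Arg2, by the Euclidean distance between centred log2 CPM, were Fam124a (distance 0.131), Pdgfrl (0.194) and Fgf1 (0.221), the last of which encodes a fibroblast growth factor. Fam124a had 21.6 and 22.5 CPM in Em+ cells, against 1.98 and 1.74 CPM in Em- cells. Pdgfrl had 25.8 and 30.6 CPM in Em+ cells, against 2.58 and 2.16 CPM in Em- cells. Fgf1 had 47.9 and 47.3 CPM in Em+ cells, against 4.18 and 4.64 CPM in Em- cells. Each, like Arg2, was about an order of magnitude higher in both Em+ libraries, with log2 fold changes of 3.56, 3.57 and 3.43 for Fam124a, Pdgfrl and Fgf1; the likeness is over 4 libraries only and was what selected them.

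Genes next to Arg2 on chromosome 12 were looked at after their values were seen. Of the 7 RefSeq neighbours within 100 kb, 5 were tested and 0 were called by edgeR, with log2 fold changes of -0.10 to 0.38. The highest was that of Zfyve26, which lies 76.0 kb away and had 85.3 and 103 CPM in Em+ cells, against 74.4 and 70.6 CPM in Em- cells (log2 fold change 0.38, SE 0.10, adjusted p 0.0778, edgeR). DESeq2 called it (adjusted p 0.0433), as did the fit without Em+ replicate 1 (0.51, adjusted p 7.62e-05) and that without Em+ replicate 2 (0.23, adjusted p 0.0175), fits that called 41.4% and 16.3% of all tested genes. Vti1b, which encodes a SNARE protein of vesicle fusion, runs on the minus strand and overlaps the last 285 bases of Arg2. It had 65.1 and 58.6 CPM in Em+ cells and 59.5 and 59.7 CPM in Em- cells, which overlap (log2 fold change 0.05, adjusted p 0.712, edgeR).

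Models of Vti1b differed in the table of known-gene transcripts. There the model NM_016800, which spans chr12:79156017-79172458, had 110 and 88 reads in Em+ libraries, against 9 and 5 reads in Em- libraries. Another model of the same span had 115 and 92 reads in Em+ libraries, against 10 and 5 reads in Em- libraries. The short model AK002289 of the same gene, which overlaps Arg2 by 280 bases, had 821 and 596 reads in Em+ libraries and 681 and 740 reads in Em- libraries. Both long models separated the fractions in that table, and the short model, which had more reads in every library, did not. The cause was not tested. Whether strand was used in counting is not given in the sources used here, so reads in the shared 285 bases cannot be assigned to a gene from these values.

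The enzymes that use ornithine had similar values in both fractions. Oat, the mitochondrial ornithine aminotransferase, had 112 and 94.8 CPM in Em+ cells and 91.8 and 104 CPM in Em- cells. The fractions overlap, and the spread within each is as large as the difference between them. Its log2 fold change was 0.08 with SE 0.10 (adjusted p 0.636, edgeR, 95% interval -0.15 to 0.31), and the sign turned to -0.04 without Em+ replicate 1 and to -0.01 without Em- replicate 1. Odc1, ornithine decarboxylase and the regulated first step of polyamine synthesis, had 125 and 118 CPM in Em+ cells and 126 and 119 CPM in Em- cells. The libraries overlap almost completely. Its log2 fold change was -0.02 with SE 0.07 (adjusted p 0.908, edgeR), and the 95% interval of -0.17 to 0.14 covers 0.887-fold to 1.10-fold; without Em+ replicate 2 or without Em- replicate 1 it was 0.02.

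The regulated enzyme of synthesis (Odc1), that of breakdown (Sat1) and spermine synthase (Sms) mark the start, the return and the end of the polyamine route, and the bases before their transcription starts are shown for these reasons. They are the 250 bases upstream of a RefSeq start (GRCm38.p6, the assembly of mm10), 5′ to 3′ on the strand of the gene. The Odc1 window ends directly before the first base of the model counted here. The counted models of Sat1 and Sms begin at chrX:155216409 and chrX:157492046, which are not the starts used for these windows. Capitals mark GGGCGG, the GC box, or its reverse complement CCGCCC, and before start 1 of Sms the E-box CACGTG, the sequence bound by MYC and MAX.
Odc1, chr12:17544623-17544872, plus strand: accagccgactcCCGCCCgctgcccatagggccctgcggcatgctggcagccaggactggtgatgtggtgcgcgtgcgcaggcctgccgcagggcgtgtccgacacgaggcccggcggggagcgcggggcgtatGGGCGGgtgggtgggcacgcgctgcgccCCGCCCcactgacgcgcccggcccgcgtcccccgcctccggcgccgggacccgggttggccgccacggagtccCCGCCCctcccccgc
Sat1, chrX:155216450-155216699, minus strand: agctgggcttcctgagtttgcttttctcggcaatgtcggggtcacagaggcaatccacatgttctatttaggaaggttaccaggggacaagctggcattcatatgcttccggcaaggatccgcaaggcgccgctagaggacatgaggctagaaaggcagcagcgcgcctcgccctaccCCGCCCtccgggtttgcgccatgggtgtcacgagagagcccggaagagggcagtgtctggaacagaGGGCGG
Sms start 1, chrX:157492288-157492537, minus strand: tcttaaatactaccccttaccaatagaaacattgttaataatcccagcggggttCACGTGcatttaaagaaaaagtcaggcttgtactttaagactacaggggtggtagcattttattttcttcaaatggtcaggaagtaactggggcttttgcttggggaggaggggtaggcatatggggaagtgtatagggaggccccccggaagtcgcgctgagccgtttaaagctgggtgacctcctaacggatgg
Sms start 2, chrX:157491369-157491618, minus strand: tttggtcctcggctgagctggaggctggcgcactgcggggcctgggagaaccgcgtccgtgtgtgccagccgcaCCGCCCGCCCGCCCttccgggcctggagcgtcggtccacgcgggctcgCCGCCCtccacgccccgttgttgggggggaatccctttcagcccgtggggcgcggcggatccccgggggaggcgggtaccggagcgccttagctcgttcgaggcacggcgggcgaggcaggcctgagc
The promoter table matched 5 of the 8 members (Odc1, Sms, Sat1, Amd1 and Oat), with 2 starts for Sms. Searched on both strands, GGGCGG occurred at 4 places before Odc1, 4 before start 2 of Sms (3 of them overlapping), 2 before Sat1, 1 before Amd1 and 0 before start 1 of Sms and before Oat. Its base nearest the 5′ end of the gene's strand lay 238, 116, 88 and 15 bases before the Odc1 start and 72 and 6 bases before the Sat1 start. It was found before 32.7% of the 32851 RefSeq starts. CACGTG occurred before 1 of the 2 Sms starts, with its first base 196 bases upstream, and before 6.02% of all starts. The letters TATAAA (12.4% of all starts) and TGCACAC (3.67%), a motif reported for ZSCAN4 binding, were not in these windows of the 5 matched genes. The motif matches are a description of the letters only.

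Amd1, S-adenosylmethionine decarboxylase, makes the aminopropyl donor for spermidine and spermine and is described by its reads. The RefSeq model labelled Amd1 (NM_009665, chr10:40287458-40302188) had 17 and 16 reads in Em+ libraries and 27 and 9 reads in Em- libraries, below the filter and overlapping. A model labelled Amd2 in the same table (NM_007444, chr10:40287465-40302186) lies on the same bases and had 544 and 461 reads in Em+ libraries and 529 and 524 reads in Em- libraries. The RefSeq row named Amd1 held 3.03% and 3.35% of the reads of the pair in Em+ cells and 4.86% and 1.69% in Em- cells. In the known-gene table NM_007444 carries the name Amd1, with 545 and 461 reads in Em+ libraries and 530 and 524 reads in Em- libraries, and Amd1 has the same reads in the Ensembl and ENCODE tables. The reads of this locus thus stand almost wholly in the row named Amd2 in the RefSeq table, and in rows named Amd1 in the other 3 tables. With both models summed, the log2 fold change was 0.07 (adjusted p 0.639, edgeR), an alternative added after the values were seen, and no table gave a call.

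The aminopropyl transferases had lower values in Em+ cells, without passing the test. Srm, spermidine synthase, had 56.6 and 54.6 CPM in Em+ cells, against 61.9 and 61.8 CPM in Em- cells. Both Em+ libraries were below both Em- libraries, and the log2 fold change was -0.15 with SE 0.07 (adjusted p 0.238, edgeR, 95% interval -0.33 to 0.02). In the Ensembl table it was -0.02 and in the ENCODE table -0.03. Of the Ensembl reads of Srm, the coding model held 6.01% and 5.13% in Em+ cells and 10.6% and 4.44% in Em- cells. The rest were reads of a retained-intron model and a processed transcript, so the Ensembl value describes mainly those models. Sms, spermine synthase, had 44.9 and 45.4 CPM in Em+ cells, against 52.5 and 56.2 CPM in Em- cells. Here too the fractions did not overlap, and the log2 fold change was -0.27 with SE 0.08 (adjusted p 0.0931, edgeR, 95% interval -0.45 to -0.09). Within a library, Sms stood at 31.2% and 32.7% of the FPKM of Srm in Em+ cells and at 33.3% and 35.8% in Em- cells.

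Sat1, spermidine/spermine N1-acetyltransferase, is the inducible enzyme that acetylates polyamines for export or breakdown. It had 44.4 and 40.7 CPM in Em+ cells, against 54.2 and 50.7 CPM in Em- cells. Both Em+ libraries were below both Em- libraries. Sat1 averaged 42.6 ± 2.56 CPM in Em+ cells, against 52.5 ± 2.48 CPM in Em- cells (SD, n = 2 each), with a log2 fold change of -0.30, SE 0.08 and an adjusted p of 0.0844 (edgeR, 95% interval -0.50 to -0.11). Set against Odc1 in the same library, Sat1 stood at 81.2% and 78.7% of the FPKM of Odc1 in Em+ cells and at 98.1% and 97.1% in Em- cells. Sat1 and Sms both lie on chromosome X, 2.23 Mb apart. Of the 7 tested members, 3 had both Em+ libraries below both Em- libraries (Srm, Sms and Sat1), which was so for 29.7% of all tested genes. In 2 (Arg2 and Azin1) both Em+ libraries lay above both Em- libraries, also 29.7% of all tested genes, and in 2 the fractions overlapped.

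In the main setting Srm, Sms and Sat1 were not called. Sms and Sat1 were called with either Em+ library left out, and Srm only with Em+ replicate 1 left out. Without Em+ replicate 1, edgeR called Srm (-0.18, adjusted p 0.0248), Sms (-0.26, adjusted p 0.00973) and Sat1 (-0.36, adjusted p 0.00183) lower in Em+, in a fit that called 41.4% of all tested genes, with 19.5% of all tested genes called lower. Without Em+ replicate 2 it called Sms (-0.28, adjusted p 0.0179) and Sat1 (-0.24, adjusted p 0.03), in a fit that called 16.3% of all tested genes, with 6.90% of all tested genes called lower. With either Em- library left out, none of the 3 was called. In these fits the lone library of a fraction is assumed to vary like the pair of the other.

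**Figure D3:**
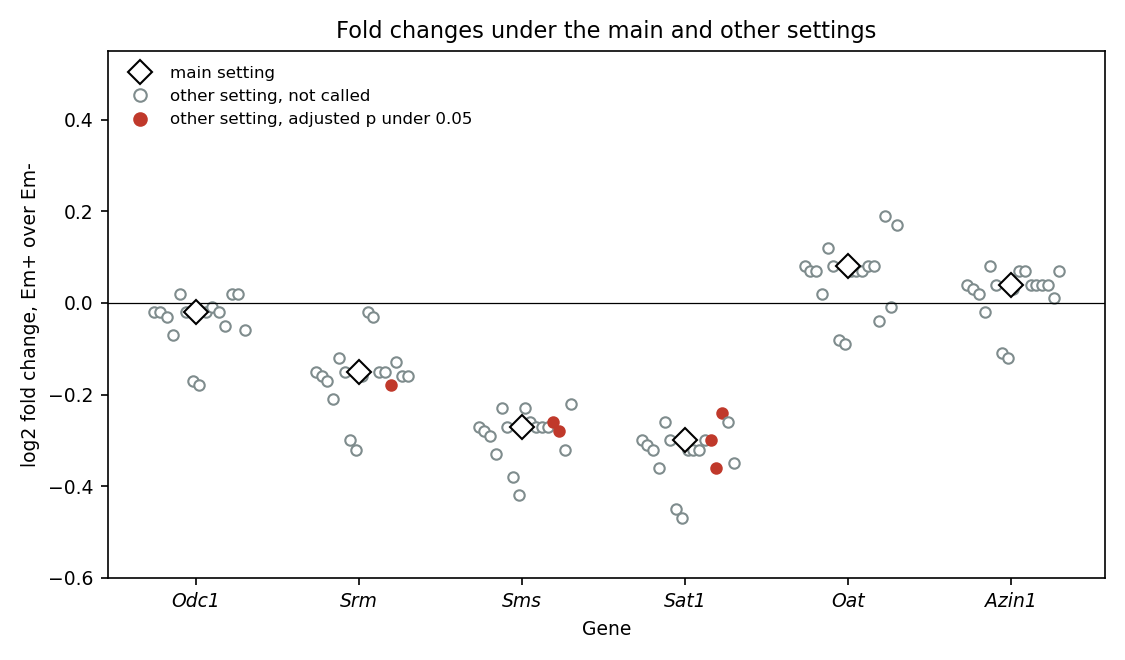
Log2 fold change (Em+ over Em-) of 6 members under the main setting (diamonds) and the other settings (circles), filled red where the adjusted p was under 0.05. The values of Sms and Sat1 stay below 0 in every setting shown; those of Odc1, Oat and Azin1 lie on both sides of 0.

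Azin1 encodes antizyme inhibitor 1, which binds antizymes and so frees ODC1 from degradation. It had 112 CPM in both Em+ libraries, against 107 and 111 CPM in the Em- libraries. The Em+ values were just above both Em- values, with a log2 fold change of 0.04, SE 0.06 and an adjusted p of 0.728 (edgeR, 95% interval -0.11 to 0.19). Without a filter the sign turned (-0.02). Of the antizymes themselves, Oaz2 was the tested one and had 13.0 and 11.8 CPM in Em+ cells and 13.4 and 11.4 CPM in Em- cells. Oaz1 had 2 and 3 reads in Em+ libraries and 1 and 8 reads in Em- libraries of the RefSeq table, too few to compare.

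Transcript models of the Ensembl table were compared within each library, as a description without a test, since reads can count for several models. Azin1, Sat1 and Sms have models that GENCODE M21 types as targets of nonsense-mediated decay (NMD), a route by which Sat1 is known to be regulated by polyamines. Of the reads over all Azin1 models, its NMD model of 2556 bases held 27.4% and 28.3% in Em+ cells and 27.6% and 29.4% in Em- cells. That of 4109 bases held 22.7% and 20.8% in Em+ cells and 22.3% and 24.7% in Em- cells. Both overlap between the fractions. The Sat1 NMD model had 31.0% and 33.1% as many reads as the coding model in Em+ cells and 32.0% and 33.1% in Em- cells, which overlap. The Sms retained-intron model had 174 and 161 reads beside 693 and 598 of the coding model in Em+ libraries, which is 25.1% and 26.9%. In Em- libraries it had 145 and 177 reads beside 850 and 934, which is 17.1% and 19.0%. Both Em+ shares were above both Em- shares; the reads of the retained-intron model itself overlapped between the fractions, and the coding model had fewer reads in both Em+ libraries. The Sms NMD model, at 42.6% and 47.7% of the coding model in Em+ cells and 45.6% and 45.9% in Em- cells, overlapped. As a share of the reads over all Sms models it did not (25.1% and 26.8% in Em+, 27.9% and 27.6% in Em-). The share of the Azin1 retained-intron model separated too (12.4% and 13.3% in Em+, 11.8% and 11.6% in Em-). Such separation is frequent with 2 libraries against 2: in CPM it held for 59.4% of all tested genes.

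**Figure D4:**
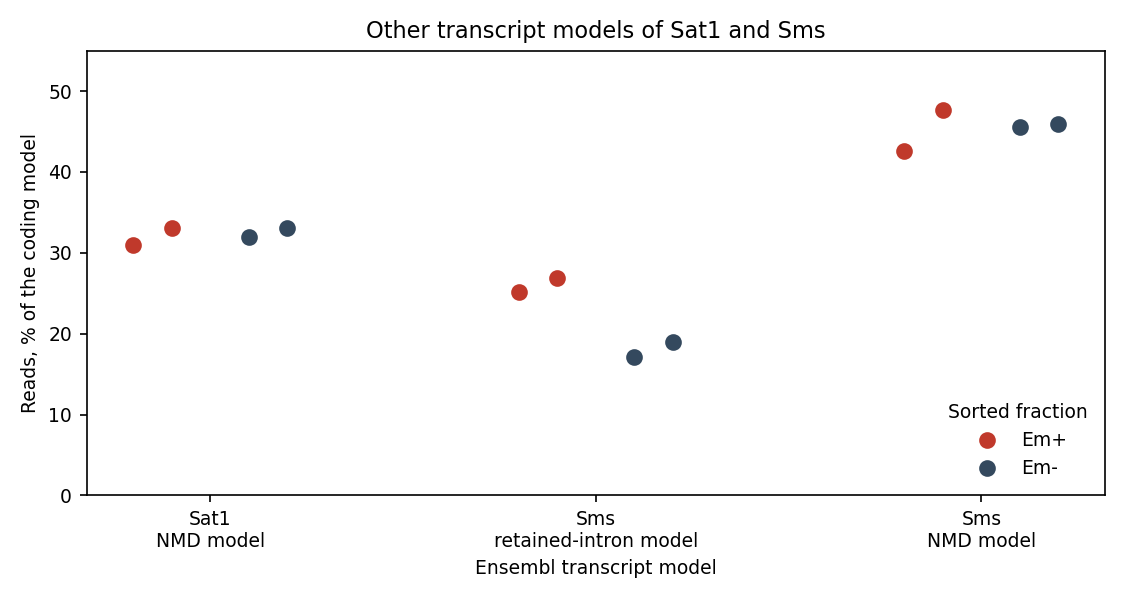
Reads of 3 Ensembl transcript models as a percentage of the coding model of the same gene, in the 2 Em+ libraries (red, left) and the 2 Em- libraries (dark blue, right). Of the 3 ratios shown, that of the Sms retained-intron model separates the fractions (25.1% and 26.9% in Em+, 17.1% and 19.0% in Em-). Those of the NMD models of Sat1 and Sms overlap.

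Odc1 differed between tables in how many reads its model was given. In the RefSeq table the model at chr12:17544873-17551502, of 2547 bases, had 2239 and 1873 reads in Em+ libraries and 2299 and 2266 reads in Em- libraries. In the Ensembl and ENCODE tables a model of the same ends and length had 10 and 18 reads in Em+ libraries and 46 and 13 reads in Em- libraries. It was not tested there. The known-gene table gave the RefSeq counts.

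The wider pathway was read from 8 lists with 72 genes in all, members included. Without the 8 members, 60 of 64 listed genes had a RefSeq row and 41 were tested, of which 0 were called higher and 2 lower in Em+ cells; their median log2 fold change was -0.07, against 0.00 over all tested genes. Of all tested genes, 3.82% were called higher and 0.822% lower. Unadjusted p-values under 0.05 were found for 1 listed gene with a higher value and 8 with a lower value in Em+ cells. The corresponding shares of all tested genes were 14.5% and 10.7%. Several listed genes below were called when an Em+ library was left out; those fits called 41.4% of all tested genes without Em+ replicate 1 and 16.3% without Em+ replicate 2, so such a call is not particular to the gene.

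Arginine entry and the urea cycle held 14 genes with a row, of which 6 were tested, with 1 lower call and a median of -0.08. The gene called was Slc7a3, a cationic amino acid transporter that carries arginine into the cell. It had 71.4 and 65.4 CPM in Em+ cells, against 90.4 and 91.3 CPM in Em- cells, and fell by 0.41 on the log2 scale (SE 0.08, adjusted p 0.0264, edgeR). The call was lost, at similar or larger log2 fold changes, without Em- replicate 1 (-0.42, adjusted p 0.176), without Em- replicate 2 (-0.40, adjusted p 0.177) and in limma on log2(FPKM + 1) (-0.54, adjusted p 0.112) or log2(FPKM + 0.1) (-0.57, adjusted p 0.124). Slc7a1, the other main arginine carrier, had 119 and 131 CPM in Em+ cells and 128 and 124 CPM in Em- cells, which overlap. Asl, the urea cycle enzyme that releases arginine, had a log2 fold change of -0.18 (adjusted p 0.302). Ass1, which makes its substrate, had 2 and 0 reads in Em+ libraries and 2 and 3 reads in Em- libraries of the RefSeq table. The known-gene model at the same position (NR_002687) had 168 and 227 reads in Em+ libraries and 173 and 211 reads in Em- libraries, which overlap. The other members of this list without a test were Arg1, Cps1, Nags, Nos1, Nos2, Agmat and Slc7a2; Otc and Azin2 were not analysed here.

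The list of ornithine and proline metabolism had 12 tested genes of 14, with Arg2 as its 1 higher call, 0 lower calls and a median of 0.00. Aldh18a1, which makes the precursor of proline and ornithine from glutamate, had 114 and 110 CPM in Em+ cells, against 94.3 and 91.0 CPM in Em- cells. Both Em+ libraries were above both Em- libraries (log2 fold change 0.28, SE 0.06, adjusted p 0.0586, edgeR). Leaving out Em+ replicate 1 gave a call (0.25, adjusted p 0.00306), as did leaving out Em+ replicate 2 (0.30, adjusted p 0.00342). Pycr1, which closes the route to proline, had a log2 fold change of -0.24 (adjusted p 0.19), and the mitochondrial ornithine carrier Slc25a15 one of -0.10 (adjusted p 0.332). Glud1, glutamate dehydrogenase, had 360 and 352 CPM in Em+ cells and 406 and 410 CPM in Em- cells (log2 fold change -0.20, adjusted p 0.122). It too was called without Em+ replicate 1 or Em+ replicate 2 (adjusted p 0.000924 and 0.00617).

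Polyamine synthesis with the supply of S-adenosylmethionine had 11 tested genes of 13, with 0 calls and a median of -0.03. Mat2a, the catalytic subunit of the S-adenosylmethionine synthetase of most tissues, had 132 and 149 CPM in Em+ cells, against 133 and 137 CPM in Em- cells. Mat2b, its regulatory subunit, had 138 and 127 CPM in Em+ cells, against 127 and 137 CPM in Em- cells. Mtap, which recovers methionine from the by-product of Srm and Sms, had 111 and 102 CPM in Em+ cells and 104 and 109 CPM in Em- cells. The fractions overlap for Mat2a, Mat2b and Mtap. Mri1, the next enzyme of that salvage route, had a log2 fold change of -0.21 (adjusted p 0.191) and was called without Em+ replicate 1 (-0.27, adjusted p 0.0207). Polyamine catabolism had 4 tested genes of 5, with 0 calls and a median of -0.20. Beside Sat1 these were Smox, spermine oxidase, at 7.47 and 7.07 CPM in Em+ cells and 9.23 and 8.38 CPM in Em- cells (log2 fold change -0.27, adjusted p 0.239), Sat2 and Paox.

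Polyamine transport had 4 tested genes of 9 with a row, with 0 calls and a median of -0.10. Slc3a2, the heavy chain of several amino acid exchangers that has also been linked to polyamine export, had 260 and 228 CPM in Em+ cells, against 305 and 301 CPM in Em- cells. The log2 fold change of Slc3a2 was -0.31 with SE 0.08 (adjusted p 0.0705, edgeR). DESeq2 called it (adjusted p 0.0442), as did edgeR without a filter (-0.37, adjusted p 0.0483), in the fit without Em+ replicate 1 (-0.41, adjusted p 3.68e-05) and in that without Em+ replicate 2 (-0.22, adjusted p 0.00346). Slc12a8 had a log2 fold change of -0.28 (adjusted p 0.111); leaving out Em+ replicate 1 gave -0.34 and a call (adjusted p 0.00674). Atp13a3, a transporter that takes up polyamines, had 332 and 419 CPM in Em+ cells and 316 and 320 CPM in Em- cells (log2 fold change 0.24, adjusted p 0.216). Without Em+ replicate 1, whose value was close to those of the Em- libraries, the log2 fold change of Atp13a3 was 0.40. Without Em+ replicate 2 it was 0.06, so the difference rests mainly on Em+ replicate 2.

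Hypusination, the only known use of spermidine as a building block of a protein, had 4 tested genes of 4, with 0 calls and a median of -0.18. Eif5a, the translation factor that is modified, had 439 and 404 CPM in Em+ cells, against 485 and 468 CPM in Em- cells. Eif5a had a log2 fold change of -0.18 (SE 0.07, adjusted p 0.186, edgeR). Leaving out Em+ replicate 1 gave a call (-0.24, adjusted p 0.000696), as did leaving out Em+ replicate 2 (-0.12, adjusted p 0.0468). Dhps and Dohh, the enzymes of the modification, had log2 fold changes of -0.18 and -0.24 (adjusted p 0.233 and 0.294).

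The MYC list holds Myc, Mycn and Mycl, activators of Odc1 and other growth genes in many cells, their partner Max, and Mxd3 and Mnt, which compete with them for Max. Of these 6 genes 5 were tested, with 1 lower call and a median of -0.21. The gene called was Mycn, which had 155 and 147 CPM in Em+ cells, against 199 and 189 CPM in Em- cells. Both Em+ libraries were below both Em- libraries, and Mycn fell by 0.36 on the log2 scale (SE 0.07, adjusted p 0.0252, edgeR). This call was lost without Em- replicate 1 (-0.33, adjusted p 0.297), without Em- replicate 2 (-0.40, adjusted p 0.095), with a filter at a mean FPKM of 5 (-0.32, adjusted p 0.0537) and in limma on log2(FPKM + 1) (-0.51, adjusted p 0.175) or log2(FPKM + 0.1) (-0.52, adjusted p 0.185). Myc itself was below the filter, at 2.68 and 3.10 CPM in Em+ cells and 3.46 and 2.74 CPM in Em- cells. The antizyme list had 2 tested genes of 4 with a row (Azin1 and Oaz2), with 0 calls and a median of 0.02.

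**Figure D5:**
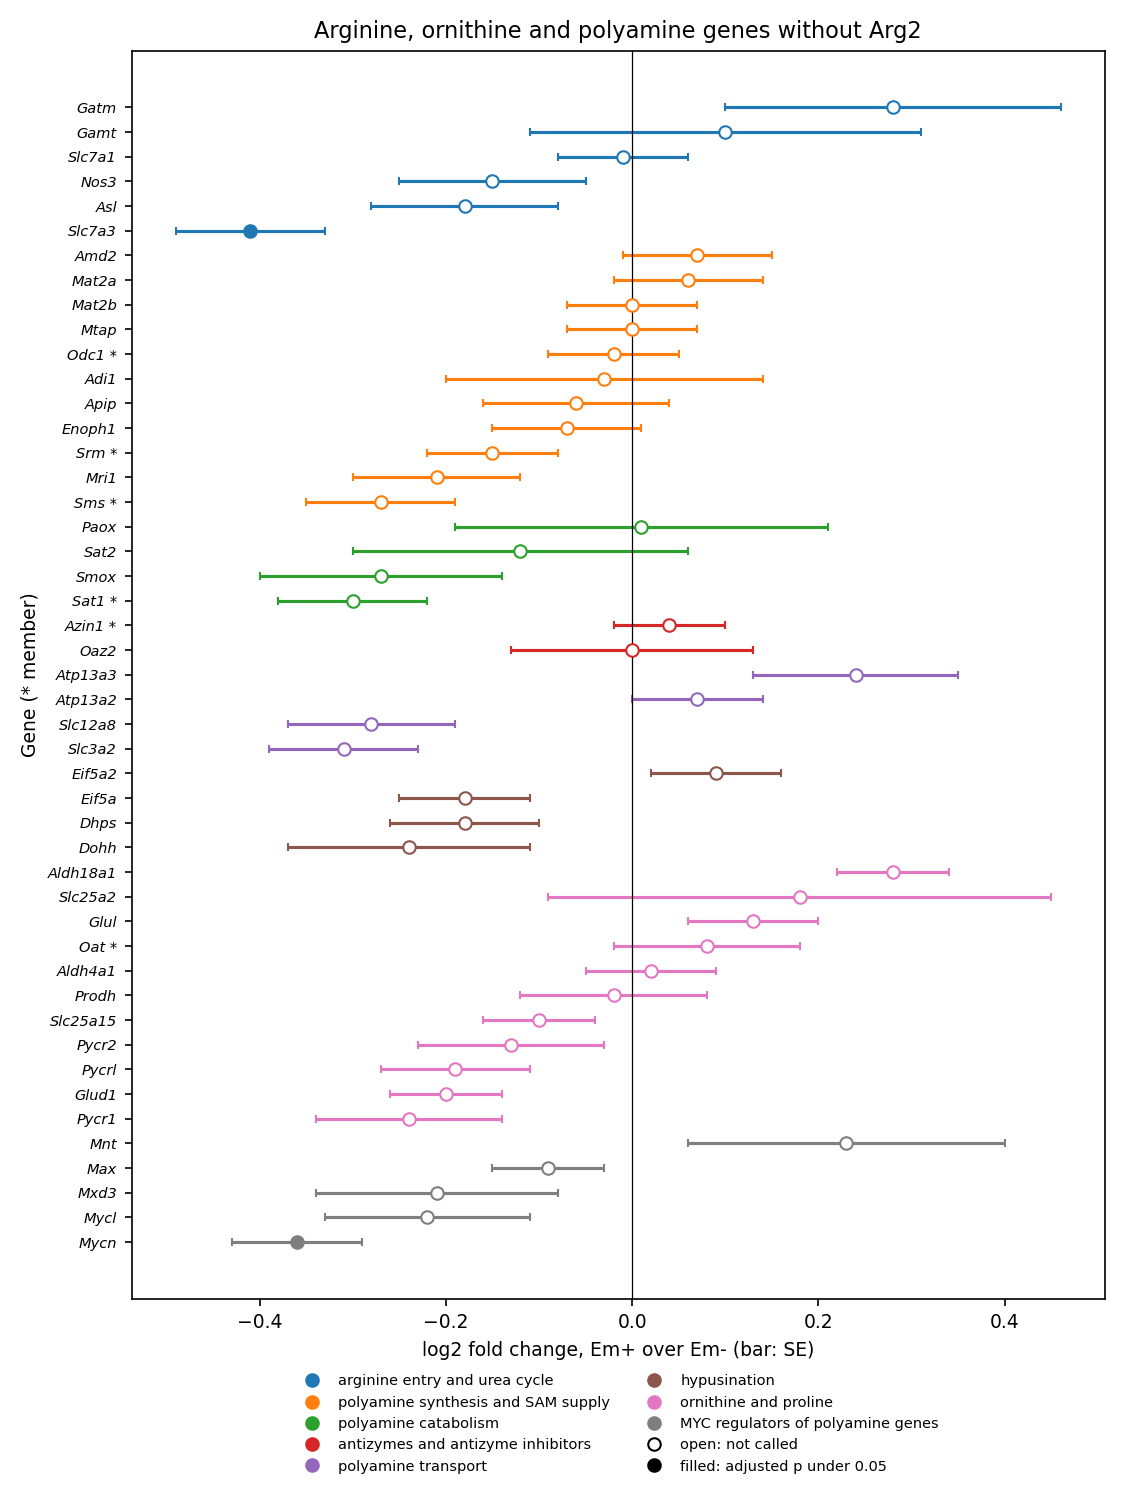
Log2 fold change (Em+ over Em-) with its SE for the tested genes of the 8 lists, without Arg2, coloured by list; filled points have an adjusted p under 0.05 and stars mark members. The filled points are Slc7a3 at -0.41 and Mycn at -0.36, and the others lie between -0.31 and 0.28.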

How the data were processed

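RNA-seq was compared between 2 Em+ and 2 Em- libraries, grouped by their titles. The authors deposited 4 tables (RefSeq, known-gene, Ensembl and ENCODE transcripts) that hold, per the file headers, a raw count and an FPKM per transcript and library. The submitters' processing notes name Bowtie2 and mm10; how reads were counted, with or without strand, and how reads matching several transcripts were treated is not given in the sources used here. For Em- replicate 1 the RefSeq and Ensembl tables list a count of 0 throughout, so its counts were computed from its FPKM, the transcript length and the library total, adding 0.0005 for truncated decimals. The same computation in the other RefSeq libraries equalled the deposited counts for 99.93% to 99.95% of 24538 transcripts. Counts were summed per symbol and a mean FPKM of at least 1 was required. Em+ was tested against Em- with edgeR 4.0.16 (quasi-likelihood test, two-sided, TMM scaling, Benjamini-Hochberg over 12050 genes, threshold 0.05) in R 4.3.3; limma 3.58.1 and DESeq2 1.42.0 were alternatives. SE was derived from the F statistic. The fitting code was tested on simulated data. Depth was 16468218 to 18953217 RefSeq reads, and the number of libraries limits the precision.

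The members, the lists and the named genes (members, listed genes with a test and the 3 genes nearest to Arg2) were chosen with earlier results of these data known. Promoter sequences are from RefSeq (GRCm38.p6) and transcript types from GENCODE M21. Alternatives were other scalings (DESeq2 size factors, upper quartile, none), filters, tests and tables, leaving out Rn45s, a replicate block and leaving out each library.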

Additional observations from a re-analysis of the deposited data

How the results depend on the processing

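Arg2 kept its call in 16 of 16 alternatives, at log2 fold changes of 2.23 to 3.65 (adjusted p 2.63e-39 to 2.3e-05). The count of all genes called, 559 in the main setting, was 1178 without a filter, 171 at a mean FPKM of 5, 293 and 269 in limma on log2(FPKM + 1) and log2(FPKM + 0.1), and 490 to 4992 with a library left out. Members called were 1 in the main setting, 0 at a mean FPKM of 5, where Arg2 was not tested, and 1 to 4 with a library left out. Leave-one-out log2 fold changes ran from -0.06 to 0.02 for Odc1, -0.18 to -0.13 for Srm, -0.32 to -0.22 for Sms, -0.36 to -0.24 for Sat1 and -0.04 to 0.19 for Oat. Odc1 was 0.02 at a mean FPKM of 5. Amd1 was 0.06 in the known-gene, Ensembl and ENCODE tables and 0.07 with both models summed, against -0.05 without a filter. In limma Oat was -0.08 and -0.09, Azin1 -0.11 and -0.12, Amd2 -0.08 and -0.09 and Vti1b -0.11; the median of all genes there was -0.135 and -0.16. Without a filter Azin1 was -0.02 and Vti1b 0.00, and with a library left out Vti1b ran from -0.02 to 0.13. Vti1b was 0.45 (adjusted p 0.0631) in the known-gene table, 0.19 in Ensembl and 0.15 in ENCODE, against 0.05 in the main setting. The cause was not tested.

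Calls with a library left out were 0 to 1 for arginine entry and the urea cycle, 0 to 4 for synthesis, 0 to 1 for catabolism, 0 to 3 for transport, 0 to 3 for hypusination, 1 to 5 for ornithine and proline and 0 to 4 for the MYC family. Each list named here reached its highest count without Em+ replicate 1, in a fit that called 41.4% of all tested genes. The fit without Em+ replicate 2 called 16.3% of all tested genes. Whether a list held more calls than these shares was not tested. The arginine and MYC lists had 0 calls in both limma fits, the MYC and ornithine lists at a mean FPKM of 5 had 0 and 0, and transport had 1 without a filter and 1 in DESeq2.

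Libraries with the same replicate number did not deviate together (correlation -0.00224), so the numbers were not taken as pairs. With the replicate number as a block, 1552 genes were called, 12.9% of those tested, with 2 members (Arg2, and Sat1 at -0.30, adjusted p 0.0292), 1 gene of catabolism (Sat1), 1 of transport (Slc3a2 at -0.31, adjusted p 0.0211) and 2 of ornithine and proline (Arg2, and Aldh18a1 at 0.27, adjusted p 0.0395). Zfyve26 was also called (0.37, adjusted p 0.0114).

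With 2 libraries a fraction, the test of single genes rests on a spread shared across genes. The depth behind Arg2 in Em- cells was 31 and 32 reads, and intervals cover counting error and the spread between these libraries only.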
